A study of Mus musculus with 6 samples.

Results

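The Egr genes (Egr1, Egr2, Egr3 and Egr4) and the Nr4a genes (Nr4a1, Nr4a2 and Nr4a3) encode transcription factors whose mRNAs neurons make within minutes of synaptic activity. They were taken by symbol from the authors' deposited table, in which each of the 7 has 1 record of 21540, and all 7 were among the 14959 records marked as tested. RNA sequencing had been done on the nucleus accumbens of C57BL/6 mice that had received intraperitoneal cocaine (20 mg/kg) once a day for 7 days (3 libraries) or saline (3 libraries), with tissue labelled as 4 h into withdrawal. The free-text treatment field of the saline libraries repeats the cocaine regimen, and the grouping follows their treatment label, which says saline. No gene was altered in either group, and the labels give neither the age nor the sex of the mice, nor whether a library came from 1 animal or from pooled tissue. Any spread between libraries may therefore be technical.

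The table gives 1 value per group and gene, in FPKM (fragments scaled to transcript length and to the library total), and no value per library. No SD or range between libraries can stand beside a value, the depth of the libraries is unknown, and each p and q below is the authors' own. A gene is said to have fallen or risen, or is called, where the deposited q lay below 0.05. Markers of medium spiny neurons, the principal cells of this region, were abundant in the deposited values, with Penk, an opioid peptide precursor, at 1498 FPKM in cocaine mice and 1531 FPKM in saline mice, and Drd1a, the D1 dopamine receptor, at 63.8 and 65.0 FPKM in the same order.

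EGR proteins bind GC-rich promoter elements through zinc fingers. Some of them are held in check by the corepressors NAB1 and NAB2, whose genes are themselves reported as Egr targets. NR4A proteins are orphan nuclear receptors that bind a short response element as monomers, and NR4A1 and NR4A2 can also pair with retinoid X receptors. Calcium and cyclic AMP signals reach these genes through SRF with its ternary complex partners and through CREB, and dopamine D1 receptor stimulation and acute psychostimulants are known to induce them in striatum. EGR1 has been reported to recruit TET1, the enzyme named in the title of the series, to DNA in mouse brain.

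In the RefSeq promoter table (GRCm38.p6), 9 start sites of 5 of the 7 genes were searched. Egr2 had 5 of them and the other 4 genes 1 each. The 250 bases upstream of 5 of these start sites are printed. They were searched for the letters of elements through which cyclic AMP and serum signals are known to reach this class of gene. Of the windows printed, only that of Egr2 held a match to the serum element. Positions are counted from the base after the window, so that -1 is the last base printed. The letters searched were TGACG, the half-site of the cyclic AMP response element (CRE), on both strands, so that CGTCA is the same match, and the CArG box, the SRF element. Both are in capitals. Of the genes analysed here, Egr1 and Egr3 were not searched and are not printed, so the matches say nothing about them.
Nr4a1 (chr15:101266596-101266845, plus strand): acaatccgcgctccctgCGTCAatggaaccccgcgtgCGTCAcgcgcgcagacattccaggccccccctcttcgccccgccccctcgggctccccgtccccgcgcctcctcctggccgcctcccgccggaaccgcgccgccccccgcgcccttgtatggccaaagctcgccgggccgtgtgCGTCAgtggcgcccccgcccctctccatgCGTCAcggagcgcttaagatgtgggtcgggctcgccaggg
Nr4a2 (chr2:57124004-57124253, minus strand): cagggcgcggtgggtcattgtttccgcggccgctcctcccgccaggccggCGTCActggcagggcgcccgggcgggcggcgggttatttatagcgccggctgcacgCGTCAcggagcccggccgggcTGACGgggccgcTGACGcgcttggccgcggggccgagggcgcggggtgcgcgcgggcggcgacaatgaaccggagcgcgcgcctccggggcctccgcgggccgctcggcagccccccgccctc
Nr4a3 (chr4:48045055-48045304, plus strand): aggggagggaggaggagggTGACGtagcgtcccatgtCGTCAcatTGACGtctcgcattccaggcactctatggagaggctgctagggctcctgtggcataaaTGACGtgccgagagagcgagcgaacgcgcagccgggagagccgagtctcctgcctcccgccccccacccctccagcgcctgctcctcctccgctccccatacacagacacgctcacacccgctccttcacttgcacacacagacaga
Egr4 (chr6:85513590-85513839, minus strand): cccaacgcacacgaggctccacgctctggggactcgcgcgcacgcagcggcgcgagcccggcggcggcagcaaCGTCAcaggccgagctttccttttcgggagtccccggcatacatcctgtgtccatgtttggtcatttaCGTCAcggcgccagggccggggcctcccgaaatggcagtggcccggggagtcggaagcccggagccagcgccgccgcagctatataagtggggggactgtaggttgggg
Egr2 (chr10:67537619-67537868, plus strand): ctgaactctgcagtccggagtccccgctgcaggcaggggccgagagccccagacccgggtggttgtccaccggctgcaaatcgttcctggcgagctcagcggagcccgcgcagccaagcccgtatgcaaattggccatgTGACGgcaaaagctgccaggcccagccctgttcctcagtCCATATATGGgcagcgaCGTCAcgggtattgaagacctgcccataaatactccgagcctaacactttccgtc

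Each of the 3 Nr4a windows held 4 CRE half-sites, against 45 of 32851 promoter windows of the same length (0.137%) that held 4 or more. The GC content of these windows was 74.4% for Nr4a1, 80% for Nr4a2 and 63.6% for Nr4a3. The share over all windows was not matched for GC content, so the part of base composition in the counts was not tested. In Nr4a1 the half-sites began at -233, -213, -69 and -40, in Nr4a2 at -200, -144, -123 and -111, and in Nr4a3 at -231, -213, -205 and -147. The Egr4 window held 2, as did 3.90% of all windows (2 or more), and 17.8% held at least 1. The Egr2 window shown held 2 and was chosen from 5 because it carries these elements, so its count is not set against the share of all windows. Of the other Egr2 windows, 2 overlap the one shown and hold the same matches, 1 held a CArG box and 0 half-sites, and 1 held neither. The full palindrome TGACGTCA, which counts as 2 overlapping half-sites, was in none of the 5 windows and in 1.55% of all windows. A CArG box stood at -72 to -63 in the Egr2 window shown and in none of the windows of the other 4 genes, and 1.47% of all windows held one. The Egr response element GCGNGGGCG was found once in Nr4a1, at -60 to -52, and once in Nr4a2, at -74 to -66 (4.70% of all windows), and AAAGGTCA, the element bound by NR4A monomers, in none of the 5 (1.34% of all windows). These are letter matches in a fixed window and not measured binding. Of the 3 genes with 4 half-sites, Nr4a1 passed the authors' test and Nr4a2 and Nr4a3 did not, as given below.

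Levels spanned a wide range. In cocaine mice the order was Egr1 (42.1 FPKM), Egr3 (33.4), Nr4a1 (14.2), Egr4 (9.01), Nr4a2 (2.85), Nr4a3 (2.78) and Egr2 (1.95). In saline mice the genes stood in the same order, with Egr1 at 49.9 FPKM, Egr3 at 33.2, Nr4a1 at 19.9, Egr4 at 10.9, Nr4a2 at 4.36, Nr4a3 at 3.69 and Egr2 at 1.89. Egr1 lay above 86.2% of tested records in cocaine mice and 88.4% in saline mice, while Egr2, a factor best known from myelinating Schwann cells and hindbrain, lay above 21.8% in cocaine mice. Nr4a1 stood 4.97-fold above Nr4a2 in cocaine mice and 4.57-fold in saline mice. The distance between Nr4a2 and Nr4a3 was 1.02-fold in cocaine mice and 1.18-fold in saline mice. Without values per library, whether neighbours in this order differ beyond their spread could not be tested.

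**Figure D1:**
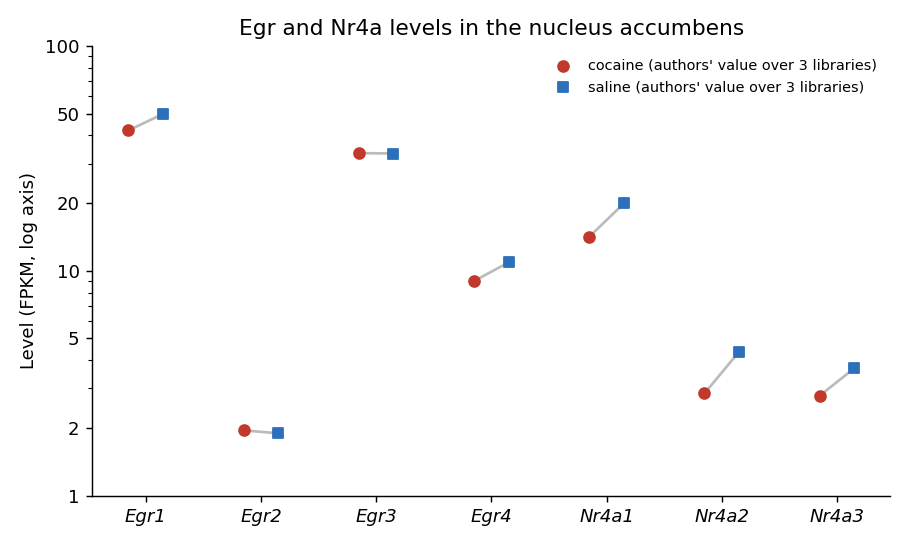
Group values of the 7 genes in FPKM on a log axis, cocaine (red circles) left of saline (blue squares), each point the authors' value over 3 libraries with no error bar because no value per library is given. Egr1 (42.1 and 49.9 FPKM), Egr4 (9.01 and 10.9) and the 3 Nr4a genes are lower in cocaine mice, while Egr2 and Egr3 are nearly level.

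Nr4a1, Egr1 and Egr4 fell after cocaine, while 0 of the 7 genes rose and 4 did not pass. Of all tested records, 1.23% were called and 0.709% were called lower in the authors' deposited table. Nr4a1 fell by 28.9%, Egr4 fell by 17.3% and Egr1 fell by 15.5% of the saline level. The deposited log2 fold change lay below 0 for 5 of the 7 and above 0 for 2, with a median of -0.27 over the 7 genes, beside a median of -0.02 and 59.3% below 0 over the 12833 tested genes that reached 1 FPKM in either group. At an unadjusted p below 0.05, 4 of the 7 were lower and 0 higher, against 3.74% of tested records that were lower by that rule.

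Nr4a1 (ENSMUSG00000023034), also known as NUR77, had 14.2 FPKM in cocaine mice and 19.9 FPKM in saline mice in the authors' deposited table, a log2 fold change of -0.49 with p and q both listed as 0. Of the 106 called falls in that table, 5 were larger. Egr1 (ENSMUSG00000038418), also known as Zif268, had 42.1 FPKM in cocaine mice and 49.9 FPKM in saline mice, a fall of 0.24 on the log2 scale by the authors' deposited table (log2 fold change -0.24, q = 7.52e-13). It was the most abundant of the 7 in both groups, and 23 called falls were larger. Egr4 (ENSMUSG00000071341), which encodes a zinc finger factor found mainly in neurons, had 9.01 FPKM in cocaine mice and 10.9 FPKM in saline mice, with a log2 fold change of -0.27 and q = 0.0198 in the authors' deposited table. The fold change of Egr4 was close to that of Egr1, at a lower level and with a q nearer the threshold.

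The remaining Nr4a genes were lower in the deposited values but did not pass. Nr4a3 (ENSMUSG00000028341), also known as NOR1, had 2.78 FPKM in cocaine mice and 3.69 FPKM in saline mice in the authors' deposited table (log2 fold change -0.41, p = 0.0325, q = 0.948). Nr4a2 (ENSMUSG00000026826), also known as NURR1 and required for midbrain dopamine neurons to form, had 2.85 FPKM in cocaine mice and 4.36 FPKM in saline mice, the largest fold change of the 7 (log2 fold change -0.61), yet the authors' deposited table lists p = 0.567 and q = 0.999976 for it. Of all tested records, 199 had a lower log2 fold change than Nr4a2, 74 of them of at least 1 FPKM in either group and 3 of them called falls. A smaller p than that of Nr4a2 was listed for 7101 tested records.

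Egr2 and Egr3 stood nearly level between the groups. Egr3 (ENSMUSG00000033730), which is required for muscle spindles to form and is the other abundant member here, had 33.4 FPKM in cocaine mice and 33.2 FPKM in saline mice in the authors' deposited table (log2 fold change 0.01, p = 0.941). Egr2 (ENSMUSG00000037868), also known as Krox20, had 1.95 FPKM in cocaine mice and 1.89 FPKM in saline mice in the authors' deposited table (log2 fold change 0.04, p = 0.944). Whether the fold change of Egr1 or Egr4 differs from that of Egr3 could not be tested without values per library.

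The size of difference that each p leaves possible was read by assuming that the authors' statistic is normal on the log scale, which the table does not state. The implied 95% interval of the log2 fold change was -0.30 to -0.18 for Egr1, -0.42 to -0.13 for Egr4 and -0.78 to -0.03 for Nr4a3. For Nr4a1, whose p is listed as 0, the interval was no wider than -0.61 to -0.37, taking the smallest p above 0 in the table (8.88e-16). Egr3 had the narrowest of the intervals that span 0, from -0.15 to 0.17, or 0.899-fold to 1.12-fold. For Egr2 it ran from -1.16 to 1.25 and for Nr4a2 from -2.72 to 1.49. In fold terms the Egr2 interval ran from 0.447 to 2.37 and the Nr4a2 interval from 0.152 to 2.80, so neither a large fall nor a large rise of these 2 genes lay outside it.

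**Figure D2:**
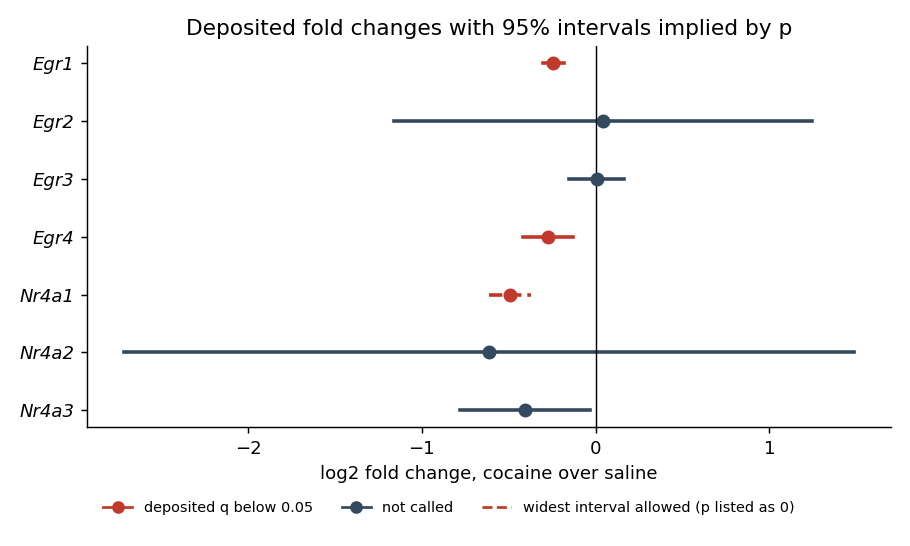
Deposited log2 fold changes, cocaine over saline, of the 7 genes (points) with the 95% interval implied by the deposited p (lines, normal statistic assumed). The intervals of Egr1, Egr4, Nr4a1 and Nr4a3 lie below 0, that of Egr3 is short and spans 0, and those of Egr2 (-1.16 to 1.25) and Nr4a2 (-2.72 to 1.49) are wide. The interval of Nr4a1 is dashed because its p is listed as 0.

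Nr4a2 had a wide implied error for its level. Its implied SE was 1.07 on the log2 scale, above that of 99.3% of 2181 tested records with a mean FPKM within 1.5-fold of its own (median SE 0.18). Nr4a3, at nearly the same level, had an implied SE of 0.19, above 51.4% of 2040 such records (median 0.19). Egr2 had an implied SE of 0.61, above 93.2% of its 1612 neighbours in level (median 0.23). At the other end, the implied SE of Egr1 was 0.03, above only 7.50% of 1761 neighbours (median 0.08), that of Egr4 was 0.07, above 22.4% of 3064 (median 0.12), and that of Nr4a1 was at most 0.06, above 21.8% of 3036 (median 0.11). The implied SE of Egr3 was 0.08, above 45.6% of 2219 (median 0.09). The implied SE is made from the same fold change and p as the call, so a small SE of a called gene restates the call and is no separate result. The comparison with records of like level was chosen after the p of Nr4a2 had been seen.

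**Figure D3:**
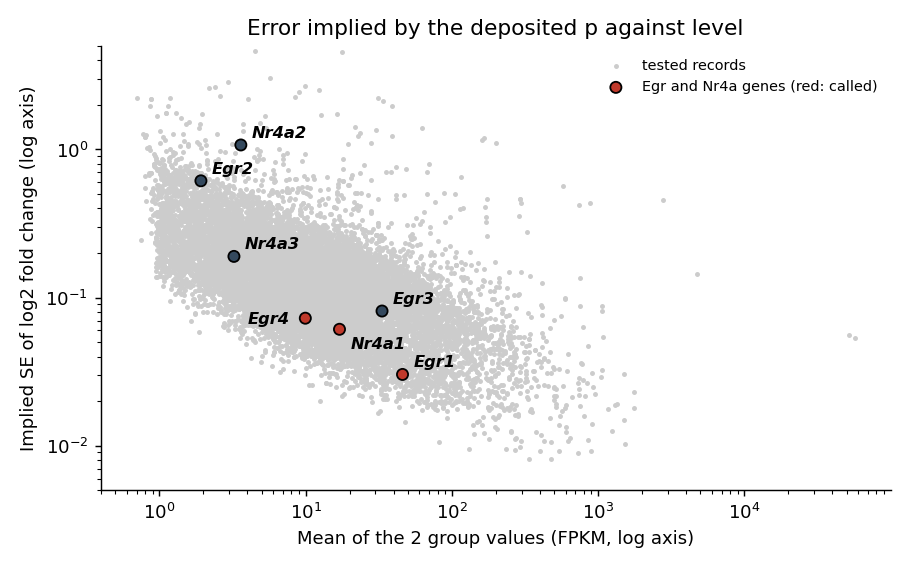
Standard error of the log2 fold change implied by the deposited p against mean FPKM, both on log axes, for 12953 tested records of at least 1 FPKM (grey, with 15 outside the axis) and the 7 genes. Nr4a2 (1.07) and Egr2 (0.61) sit at the upper edge of records of their level, Nr4a3 (0.19) in the middle, and Egr1 (0.03) near the lower edge.

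Summed over the family, Nr4a mRNA stood at 19.8 FPKM in cocaine mice and 28.0 FPKM in saline mice, a log2 ratio of -0.50, and without Nr4a2 the log2 ratio was -0.48. Nr4a1 made up 71.6% of the Nr4a sum in cocaine mice and 71.2% in saline mice, so the make-up of the family was nearly alike in the groups. The Egr sum was 86.4 FPKM in cocaine mice and 95.9 FPKM in saline mice, a log2 ratio of -0.15. Egr1 made up 48.7% of it in cocaine mice and 52.0% in saline mice, while Egr3 made up 38.6% in cocaine mice and 34.7% in saline mice. No test of the sums was possible.

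**Figure D4:**
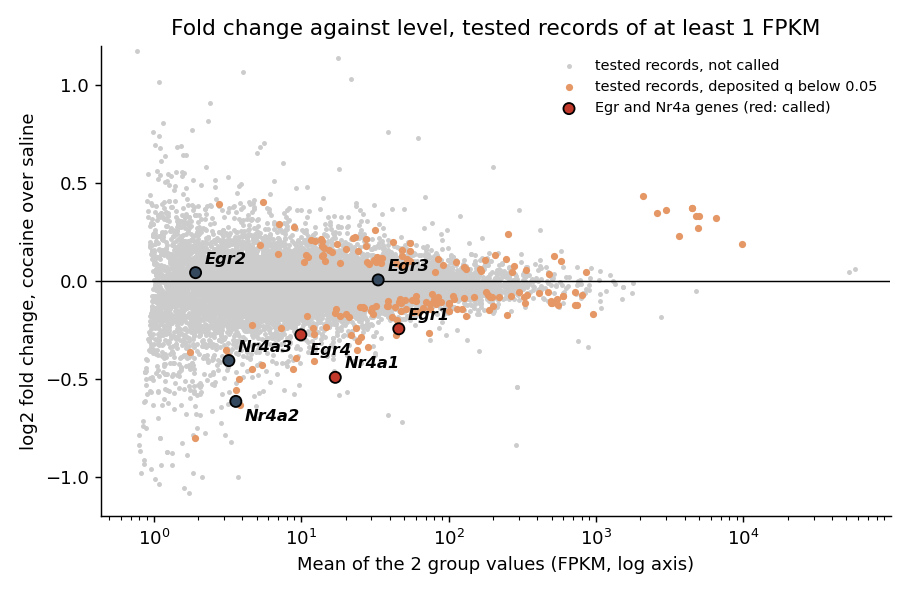
Deposited log2 fold change, cocaine over saline, against mean FPKM (log axis) for tested records of at least 1 FPKM, with 12955 shown and 29 beyond 1.2 log2 units left outside the axis. Nr4a1 (-0.49), Egr4 (-0.27) and Egr1 (-0.24) lie toward the lower side of records of their level, Nr4a2 (-0.61) lies lower still among records of low level, and Egr2 and Egr3 lie near 0.

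The genes with nearly the same fold change as a called Egr or Nr4a gene did not pass. Among genes of at least 5 FPKM, the 3 nearest to Nr4a1 over the 2 group values were Svil (3.85 FPKM in cocaine mice and 5.41 in saline mice, log2 fold change -0.49), Bbc3 (4.25 and 5.92, -0.48) and Rec8 (5.76 and 8.01, -0.48) in the authors' deposited table. The nearest to Egr1 were Pus10, Arhgap27 and Car4 (each -0.24), and the nearest to Egr4 were Dgcr8, Ide and AW551984 (-0.27 each). For each of these 9 the authors' deposited table lists q = 0.999976, and only Ide had a p below 0.05 (p = 0.0389). A likeness over 2 group values says nothing beyond the size of the difference.

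The measured genes that carry activity signals to the Egr and Nr4a promoters differed little. Creb1, the gene of CREB, is not among them, because the authors' deposited table marks its test as failed. Of 16 measured inducing transcription factors and coactivators 1 fell, 0 rose and 15 did not pass, with a median log2 fold change of 0.03 (12 above 0). By comparison, 0.826% of the tested genes that reached 1 FPKM were called lower and 0.608% higher in the authors' deposited table. The fall was Srf, the serum response factor that binds CArG boxes, at 16.5 FPKM in cocaine mice and 18.2 FPKM in saline mice (log2 fold change -0.14, q = 0.0262 in the authors' deposited table). Of 15 inducing kinases and their regulators, among them the ERK and CaM kinases, 0 passed, with a median of -0.02 and values from -0.29 to 0.12, and 2 were lower and 0 higher at an unadjusted p below 0.05.

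Among 16 other measured immediate-early transcription factors 2 fell, 0 rose and 14 did not pass, and 14 of the 16 lay below 0 (median -0.15). Over all tested genes that reached 1 FPKM, 0.826% were called lower and 59.3% lay below 0 (median -0.02). Junb, an AP-1 subunit, fell to 21.1 FPKM in cocaine mice against 27.0 FPKM in saline mice (log2 fold change -0.35, q = 1.94e-09 in the authors' deposited table), and Fosl2, another AP-1 subunit, to 4.27 FPKM in cocaine mice against 4.99 FPKM in saline mice (-0.23, q = 0.0474). Fos, at 3.03 FPKM in cocaine mice and 3.36 FPKM in saline mice (-0.15, p = 0.577), and Fosb, at 2.89 and 2.67 FPKM in the same order (0.12, p = 0.251), were not called in the authors' deposited table.

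The Egr corepressors were not called. In the authors' deposited table Nab1 had 6.16 FPKM in cocaine mice and 7.35 FPKM in saline mice (log2 fold change -0.25, p = 0.360), and Nab2 had 14.4 FPKM in cocaine mice and 16.3 FPKM in saline mice (-0.17, p = 0.131). Of 8 measured genes reported elsewhere as Egr targets, the 2 Nab genes included, 0 passed, with a median of -0.09 and 6 below 0. The share below 0 over all tested genes that reached 1 FPKM was 59.3%. Arc, a synaptic immediate-early gene on that list, had 15.6 FPKM in cocaine mice and 17.6 FPKM in saline mice (-0.18, p = 0.00633, q = 0.338 in the authors' deposited table). Of 6 measured genes reported as Nr4a targets 0 passed, with a median of -0.02 and 3 on either side of 0. Tet1 had 2.07 FPKM in cocaine mice and 1.58 FPKM in saline mice (log2 fold change 0.39, p = 0.221 in the authors' deposited table).

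Relatives of either family were counted in the same way. Over all tested genes that reached 1 FPKM, 0.826% were called lower and 0.608% higher. Of 14 listed zinc finger factors of GC boxes, Klf16, a Krüppel-like repressor, fell to 29.1 FPKM in cocaine mice against 32.6 FPKM in saline mice (log2 fold change -0.17, q = 0.00144 in the authors' deposited table), 13 did not pass, and the median was 0.00. The list does not hold Klf5, another Krüppel-like factor, which also fell in the authors' deposited table (-0.27, q = 0.0338) and was added here after its value was seen. Of 24 other nuclear receptors, Nr1d1, the heme-binding clock repressor REV-ERB alpha, fell to 41.3 FPKM in cocaine mice against 47.4 FPKM in saline mice (-0.20, q = 3.70e-05 in the authors' deposited table), 23 did not pass, and the median was 0.02. The 9 measured retinoid X receptors and cofactors gave 0 calls and a median of -0.03. Across all 9 pathway lists the distinct genes numbered 108 measured, of which 5 fell and 0 rose, to be read beside the same shares.

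**Figure D5:**
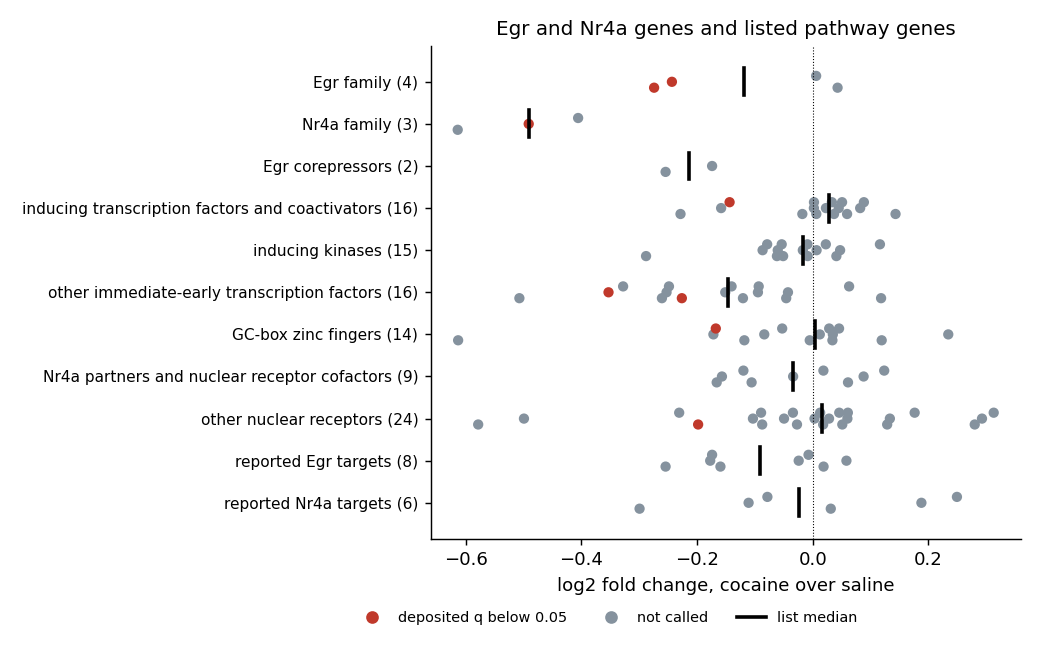
Deposited log2 fold changes, cocaine over saline, of the Egr and Nr4a genes and of the measured members of 9 pathway lists (number measured in brackets), with called genes in red, others in grey and the list median as a black bar. The Nr4a genes run from -0.61 to -0.41, the immediate-early factors have a median of -0.15, and the inducing factors and kinases lie around 0.

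Markers of other cells moved in the same comparison, and their part in the Egr and Nr4a values was not tested. In bulk tissue fewer cells of a type and less RNA per cell cannot be told apart. The counts below stand beside 59.3% of all tested genes that reached 1 FPKM below 0. Of those genes, 0.826% were called lower and 0.608% higher. Of 12 endothelial markers 11 lay below 0, with a median of -0.32 and a summed level of 45.1 FPKM in cocaine mice and 53.6 FPKM in saline mice, and 1 fell, the tight junction gene Cldn5 (log2 fold change -0.45, q = 0.00123 in the authors' deposited table). All 8 mural cell markers lay below 0 (43.1 FPKM in cocaine mice and 48.1 FPKM in saline mice, median -0.14), and 0 passed. Of 5 neuroblast markers, summing to 28.1 FPKM in cocaine mice and 34.5 FPKM in saline mice, 2 fell, Sox11 (-0.43) and Cd24a (-0.56), and 4 lay below 0. Of 5 cortical neuron markers (62.6 FPKM in cocaine mice and 68.4 FPKM in saline mice) 4 lay below 0 and Slc17a7 fell (-0.15). All 5 blood transcripts lay below 0 (261 and 301 FPKM in the same order), and Hba-a2 fell (-0.26), although reads may be shared with its near-identical copy Hba-a1. Of 3 measured choroid plexus markers (17.9 FPKM in cocaine mice and 8.55 FPKM in saline mice) Ttr rose, with 10.8 FPKM in cocaine mice and 0.668 FPKM in saline mice, while the other 2, Kl (-0.04) and Clic6 (-0.18), lay below 0 and did not pass (median -0.04). Tested markers of that list below 1 FPKM in both groups lay above 0 and were not called. They were Kcnj13 (3.14), Folr1 (1.40), Otx2 (0.21) and Prlr (0.095). The 10 medium spiny neuron markers summed to 3795 FPKM in cocaine mice and 3873 FPKM in saline mice (median -0.02), and 0 of them passed, nor did any of 8 astrocyte (median 0.06), 10 microglial (0.06) or 7 oligodendrocyte markers (-0.02). Listed markers below 1 FPKM in both groups were left out of these counts, so no measured marker could be at 0 in both. Mitochondrial mRNAs made up 8.25% of summed FPKM in cocaine mice and 6.82% in saline mice.

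GC content differed among the 7 genes in the same direction as the calls, and its part in the calls was not tested. The longest annotated transcript of Egr4 was 68.2% GC, that of Egr1 57.3% and that of Nr4a1 57.0%, against 51.4% for Egr2, 51.3% for Egr3, 48.4% for Nr4a3 and 47.9% for Nr4a2 and a median of 49.9% over the genes measured. The 3 called members thus had the highest GC content of the 7. With the median of genes of like GC content and length subtracted, the log2 fold change was -0.43 for Nr4a1, -0.21 for Egr4, -0.19 for Egr1, -0.59 for Nr4a2 and -0.40 for Nr4a3, and it was 0.03 for Egr3 and 0.08 for Egr2. No p belongs to these corrected values.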

How the data were processed

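RNA sequencing of 3 cocaine and 3 saline libraries of mouse nucleus accumbens was represented by 1 table of the whole series. Per the submitters' processing notes, TopHat2 2.0.6 and Cufflinks 2.0.2 were used with genome build NCBIM37. The annotation and the library strand are not stated in the labels or the table. Per the file headers, the columns are those Cuffdiff writes per gene, so the group values were read as FPKM made by the authors. The log2 fold change (cocaine over saline), p-value and q-value were deposited by the authors and copied. Recomputed fold changes lay within 1.28e-05 of those deposited. FPKM depends on transcript length and on the library total, and the depth per library is unknown.

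Genes were called at a deposited q below 0.05. The deposited q differed by up to 0.257 from a Benjamini-Hochberg adjustment over the 14959 tested records, so the set of tests behind it is not known. Lists used 1 record per symbol, the highest in mean FPKM, and a minimum of 1 FPKM in either group. The members and lists were chosen with earlier results of these data known, so lists carry no test. Named genes followed a fixed rule: the 7 members, up to 4 called genes of each pathway list and up to 2 of each marker list, Fos, Fosb, Junb, Arc, Nab1, Nab2 and Tet1, and the 3 genes of at least 5 FPKM nearest in fold change to each called member. Penk, Drd1a, Hba-a1, Klf5, Creb1, Kl, Clic6, Kcnj13, Folr1, Otx2 and Prlr were added after their values were seen. Implied errors assume a two-sided normal p. For Nr4a1, whose p is listed as 0, a widest allowed interval was added after the table was seen. Transcript GC content and length came from GENCODE mouse release 21 (98.0% of genes matched), binned 10 by 10. No alternative test per library was run because the table holds no such values. Python 3.11.15, pandas 2.3.3, numpy 2.4.6 and scipy 1.17.1 were used, and the calculations were tested on simulated data.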

Additional observations from a re-analysis of the deposited data

How the results depend on the processing

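The direction of each of the 7 deposited fold changes held when the median of all genes was subtracted. It also held when the GC content and length trend was removed. Pseudocounts of 0.1 and 1 FPKM can change the size of a fold change but not its direction. Rescaling without mitochondrial mRNAs moved every log2 fold change by only 0.000592, so it tested direction little. The log2 fold change ranged from -0.49 to -0.43 for Nr4a1, from -0.24 to -0.19 for Egr1, from -0.27 to -0.21 for Egr4, from -0.61 to -0.48 for Nr4a2 and from -0.41 to -0.31 for Nr4a3. The count of 3 members called lower was also 3 at q below 0.1 and after adjustment over genes of at least 1 FPKM alone, and 2 at q below 0.01, where Egr4 was lost. In the pathway lists 5 genes were called lower, also with no minimum, and 4 with a minimum of 5 FPKM. The median of the reported Nr4a targets was 0.00 with no minimum. No paired analysis was possible because the table holds no value per library, and leaving out replicates was not run for the same reason. The depth is unknown, so what it limits could not be measured.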
